A study of Mus musculus with 22 samples.

Results

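Interleukin-6 family signalling was followed through 10 genes of 22485 on the array: the ligands Il6 and Lif, the receptor genes Il6ra, Il6st, Lifr and Cntfr, the transcription factor gene Stat3, and Socs1, Socs2 and Socs3, which encode suppressors of cytokine signalling. They were taken by gene symbol, with all 34 of their probes among 43020. Each gene was read from its main probe, the one with the highest mean among probes with values in all 22 samples. For Lif, whose 1 probe had blanks, these were skipped. For Cntfr the other probe, with values on 7 arrays, had the higher mean when blanks were skipped (6.95 against 6.67). All 10 were measured in both cell types, though Lif had values on 4 of 7 microglia arrays. The samples were microglia (CD11b+/CD45+) and astrocytes (GLT1+/CD11b-) sorted from dissociated cortex after removal of myelin and of O4+ cells, all from mice on a C57BL/6 background aged 15 to 18 months. There were 7 microglia samples and 4 astrocyte samples from APPswe/PS1dE9 mice (APP/PS1), which carry transgenes of mutant human amyloid precursor protein and presenilin 1 and form amyloid plaques, and as many of each from wild-type littermates (WT). As background, both transgenes of this line are driven by the mouse prion promoter, directed mainly to neurons. The labels call the samples biological replicates, and the sources used here do not say whether a sample was 1 animal or a pool. On each of 11 dual-colour Agilent arrays, an APP/PS1 sample was hybridised together with the equally numbered WT sample of its cell type, with dyes exchanged between arrays.

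Cytokines of the interleukin-6 family bind a receptor subunit of their own and then the shared transducer gp130, encoded by Il6st, whose associated Janus kinases phosphorylate STAT3. Phosphorylated STAT3 enters the nucleus and switches on target genes, among them Socs3, whose product binds gp130 and the kinases and shuts the signal off. In the brain the pathway is best known from astrocytes, where STAT3 takes part in the reaction to injury, and from microglia, a source of several of the ligands.

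Socs3 is the member in which the cell types differed most in their genotype effect, and its promoter is shown because it was also the 1 member promoter with a STAT-type palindrome. The palindrome TTCNNNGAA, which reads the same on both strands and was the only motif searched, was present in 1 of 9 member genes with a promoter in the RefSeq table (build GRCm38.p6, 250 bases before to 50 after each start listed there). It was present in 9.55% of 27025 genes and in 8.30% of 32851 promoter windows. Of 18 known STAT3 target genes with a promoter in the table, 3 held it. The 250 bases before the listed start of Socs3 (chr11:117969367-117969616, minus strand) follow with the palindrome in capitals. The annotated Socs3 locus spans 117966079 to 117970336, so this stretch lies inside it and not before its outer end. Short windows around the palindrome come next, from 3 other pathway genes that differed between the genotypes in both cell types. They are Gfap (chr11:102897184-102897212, minus strand), Icam1 (chr9:21015888-21015916, plus strand) and Cish (chr9:107296649-107296677, plus strand). A second palindrome of Cish starts inside the window shown and runs past its end, and it is left in lower case. Icam1 was chosen after its values were seen (1.31 ± 0.19, adjusted p = 0.000678, in astrocytes and 0.47 ± 0.14, adjusted p = 0.0427, in microglia, APP/PS1 minus WT on the log2 scale, by limma). A match describes letters and not a bound site.
Socs3: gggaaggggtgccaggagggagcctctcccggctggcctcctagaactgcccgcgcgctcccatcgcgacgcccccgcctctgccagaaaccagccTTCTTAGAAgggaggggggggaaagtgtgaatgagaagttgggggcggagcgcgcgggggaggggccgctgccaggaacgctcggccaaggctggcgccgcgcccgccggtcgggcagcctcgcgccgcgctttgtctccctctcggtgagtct
Gfap: atgggggtgcTTCCAGGAAgtcaggggca
Icam1: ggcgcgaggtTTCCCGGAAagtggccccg
Cish: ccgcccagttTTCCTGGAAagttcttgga

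Values are the deposited log2 intensities, whose sample medians lay between 6.24 and 6.26, and each difference is the APP/PS1 value less the WT value, ± its standard error, unless another direction is given. Markers bore out the sorts in broad terms: 12 of 12 astrocyte markers were higher in WT astrocytes than in WT microglia (median difference 8.02) and 13 of 14 microglia markers were lower (median -8.57), the exception being Itgam, singled out after its values were seen (-0.44 ± 0.23, adjusted p = 0.121). Vascular markers were higher in WT astrocytes than in WT microglia too, 10 of 11 endothelial markers (median 5.32, 1 lower) and 8 of 9 mural cell markers (median 6.40). Of all genes, 35.2% were higher and 18.0% lower in this comparison. Markers of microglia, endothelial cells and mural cells were higher in the APP/PS1 astrocyte samples than in their WT partners, and those of other cell types mostly were not. Of 14 microglia markers, 12 rose and 1 fell (median 1.90), and their mean level was 8.59 to 10.83 in APP/PS1 and 6.88 to 8.39 in WT astrocytes, against 14.78 to 15.39 in microglia samples. Endothelial markers rose in 10 of 11 cases (median 1.12, mean level 12.93 to 13.77 in APP/PS1 and 12.08 to 12.85 in WT astrocytes), mural cell markers in 6 of 9 (median 1.83, 12.28 to 14.26 in APP/PS1 and 10.41 to 12.81 in WT astrocytes), while 11 of 12 astrocyte markers fell and Gfap rose (median -1.37). Of 12 neuron markers 1 rose and 2 fell (median 0.27), and of 8 oligodendrocyte markers 2 rose and 2 fell (median 0.11). Of 6 oligodendrocyte precursor markers 1 rose and 2 fell (median -0.27). Of 8 perivascular macrophage and monocyte markers 1 rose and 0 fell (median 0.14), and of 8 lymphocyte markers 0 rose and 1 fell (median 0.19). Of all genes, 15.4% rose and 18.0% fell in astrocytes. In these bulk samples fewer cells of a type and less RNA per cell cannot be told apart. The 2 samples differed by 5.06 and 5.09 log2 in the Y-linked gene Eif2s3y on astrocyte arrays 1 and 3, and by 6.07 on microglia array 1, so results are also given without those 3 arrays where that changes a call. The arrays kept as matched differed by under 3, the highest being microglia array 7 at 2.74.

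Levels in WT samples split the members by cell type. Il6, Il6ra and Socs3 were far higher in microglia and Cntfr far higher in astrocytes, while Stat3, Socs1 and Socs2 did not pass the test between the cell types. In all, 2 of 10 members were higher in WT astrocytes than in WT microglia and 4 lower (limma, Benjamini-Hochberg adjusted p under 0.05 over all genes), against 35.2% and 18.0% of 22397 genes. All 4 astrocyte arrays shared a slide that held no microglia, and in these level differences the slide cannot be told apart from the cell type. Endothelial and mural markers were also higher in the WT astrocyte samples. The part of those cells in the level differences here and below was not tested.

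**Figure D1:**
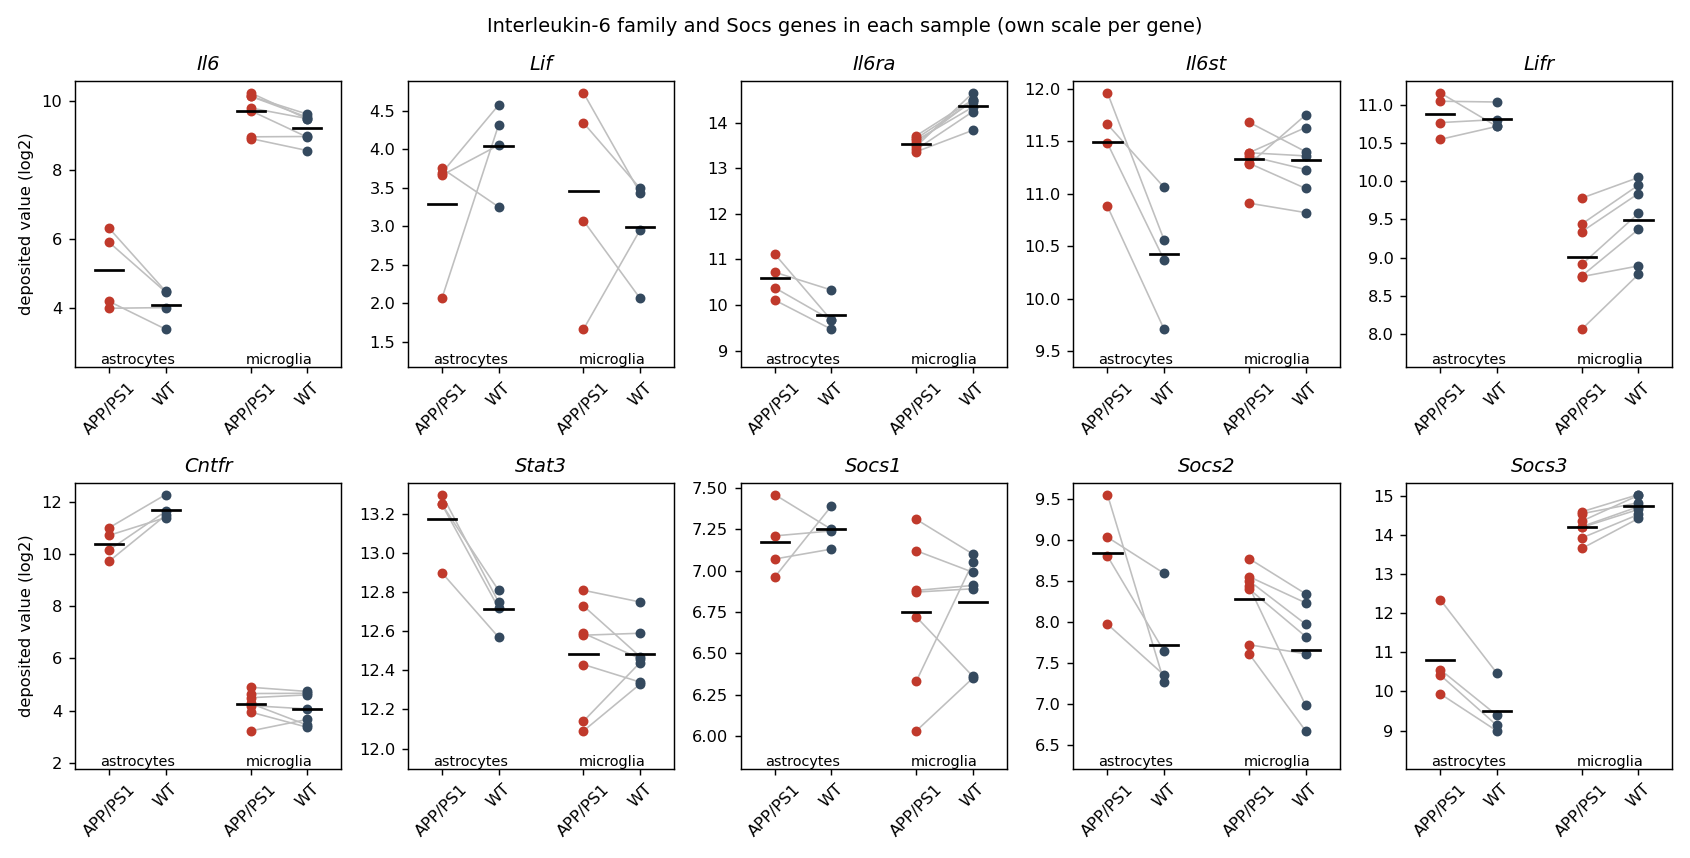
Deposited log2 value (vertical axis, own scale per gene) of each member in each sample, by cell type and genotype; points are samples, bars are group means, and grey lines join the 2 samples of an array. Socs3 and Il6ra lie above 13 in the microglia samples and below 13 in the astrocyte samples, and Cntfr lies below 5 in microglia and above 9 in astrocytes.

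Among the ligands, Il6 encodes the founding cytokine of the family. Its values were 5.90, 3.98, 4.18 and 6.31 in APP/PS1 astrocytes of arrays 1 to 4, and 4.45, 4.00, 3.37 and 4.47 in WT astrocytes. The APP/PS1 samples of arrays 1 and 4 stood above all WT samples, and those of arrays 2 and 3 lay within the WT range. Il6 was higher by 1.02 ± 0.25 (adjusted p = 0.00977), on 3 of 4 arrays. That call was lost without replicate 1 (0.80, adjusted p = 0.0574), without replicate 4 (0.77, adjusted p = 0.0538), and on the arrays matched in Eif2s3y (0.91, adjusted p = 0.111). In microglia the lowest, median and highest values were 8.92, 9.81 and 10.25 with APP/PS1 and 8.57, 9.49 and 9.63 with WT. The microglia groups overlapped, and the difference of 0.49 ± 0.19, in the same direction on 6 of 7 arrays, did not pass (adjusted p = 0.0978), though it passed with microglia fitted alone (adjusted p = 0.0219) and among genes above the median gene (adjusted p = 0.0392). WT astrocytes lay below WT microglia (difference -5.15 ± 0.39, adjusted p = 3.91e-10), and the lower quartile of the table was 4.07 to 4.11, so the WT astrocyte values are at the dim end of the arrays.

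Lif encodes leukaemia inhibitory factor, a ligand of the Lifr and gp130 pair. It was dim throughout, with 3.66, 2.06, 3.75 and 3.69 in APP/PS1 astrocytes and 4.05, 4.31, 3.25 and 4.57 in WT astrocytes. In microglia it had values for replicates 1, 2, 3 and 7 only, 4.73, 1.66, 3.07 and 4.34 with APP/PS1 and 3.43, 2.95, 2.06 and 3.49 with WT. The groups overlapped in both cell types and no contrast passed (-0.75 ± 0.55 in astrocytes, adjusted p = 0.351, and 0.38 ± 0.59 in microglia, adjusted p = 0.728).

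Il6ra encodes the ligand-binding subunit for interleukin-6, and its genotype effects had opposite signs in the 2 cell types. In microglia the lowest, median and highest values were 13.36, 13.55 and 13.71 with APP/PS1 and 13.83, 14.46 and 14.65 with WT. The 2 microglia groups did not overlap, and each APP/PS1 sample was the lower of its array (7 of 7). Il6ra fell by 0.80 ± 0.10 on the log2 scale (adjusted p = 0.000535). In astrocytes the values were 10.72, 10.38, 10.11 and 11.12 with APP/PS1 and 10.33, 9.67, 9.47 and 9.67 with WT. These groups overlapped in part, but each APP/PS1 sample was the higher of its array, and Il6ra rose by 0.80 ± 0.13 (adjusted p = 0.00151), the array differences running between 0.39 on array 1 and 1.46 on array 4. It averaged 10.58 ± 0.44 in APP/PS1 and 9.78 ± 0.38 in WT astrocytes (SD, n = 4 each), and 13.54 ± 0.13 in APP/PS1 and 14.36 ± 0.27 in WT microglia (n = 7 each), so every microglia sample lay above every astrocyte sample. WT astrocytes minus WT microglia gave -4.56 ± 0.19 (adjusted p = 5.16e-14).

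The transducer gene Il6st rose in astrocytes and did not pass in microglia. Its values were 11.66, 11.48, 10.88 and 11.96 in APP/PS1 astrocytes, and 11.06, 10.37, 9.71 and 10.56 in WT astrocytes. The WT sample of array 1 reached into the APP/PS1 range, yet each APP/PS1 sample was the higher of its array, with differences of 0.60, 1.11, 1.17 and 1.39. The change was 1.07 ± 0.15, a 2.10-fold rise (adjusted p = 0.000638). In microglia the lowest, median and highest values were 10.91, 11.36 and 11.68 with APP/PS1 and 10.82, 11.36 and 11.75 with WT, an almost complete overlap, and the difference was 0.02 ± 0.11 (adjusted p = 0.951). WT astrocytes lay below WT microglia (difference -0.89 ± 0.23, adjusted p = 0.00264), a call lost with slide as a random block (adjusted p = 0.187), and the mean of APP/PS1 astrocytes (11.49 ± 0.45, SD, n = 4) was within the microglia range.

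Lifr encodes the receptor subunit shared by leukaemia inhibitory factor and ciliary neurotrophic factor, and it fell in microglia. The lowest, median and highest microglia values were 8.06, 8.91 and 9.78 with APP/PS1 and 8.78, 9.58 and 10.05 with WT. The groups overlapped, but the APP/PS1 sample was the lower one on 7 of 7 arrays, and the change was -0.51 ± 0.08 (adjusted p = 0.00221). All 3 Lifr probes passed in microglia, at -0.69 to -0.45. Astrocyte values were 10.77, 11.16, 10.55 and 11.05 with APP/PS1 and 10.81, 10.72, 10.72 and 11.04 with WT, which overlapped (0.06 ± 0.11, adjusted p = 0.729), although 1 of the other 2 probes passed there (0.43 ± 0.15, p adjusted over all probes = 0.0462). The level in WT astrocytes was 1.32 ± 0.24 above that in WT microglia (adjusted p = 0.000103).

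Cntfr encodes the membrane-anchored subunit that binds ciliary neurotrophic factor. It was the 1 member that fell in astrocytes. On arrays 1, 2, 3 and 4 its values were 9.72, 11, 10.71 and 10.15 with APP/PS1, against 11.48, 12.27, 11.39 and 11.63 with WT. The 2 astrocyte groups did not overlap, and Cntfr fell by 1.30 ± 0.21 on the log2 scale (adjusted p = 0.00123), on 4 of 4 arrays. Both Cntfr probes passed in astrocytes, the other at -1.37 ± 0.16 (p adjusted over all probes = 0.00186). In microglia the lowest, median and highest values were 3.23, 4.28 and 4.90 with APP/PS1 and 3.37, 4.07 and 4.74 with WT, at the dim end of the arrays and overlapping (0.15 ± 0.16, adjusted p = 0.597). WT astrocytes lay 7.60 ± 0.33 above WT microglia (adjusted p = 7.97e-14). The array differences in astrocytes, -1.76, -1.28, -0.68 and -1.49, stood beside medians of -2.26, -1.55, -0.36 and -1.59 for the astrocyte markers on the same arrays, and the part of a lower astrocyte share in this fall was not tested.

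Stat3, the gene of the pathway's main transcription factor, was bright in both cell types and rose in astrocytes. Its values were 13.30, 13.25, 13.25 and 12.90 in APP/PS1 astrocytes, and 12.75, 12.72, 12.81 and 12.57 in WT astrocytes. The groups did not overlap, and the differences of 0.55, 0.53, 0.44 and 0.32 were the most even of the members that rose. The change was 0.46 ± 0.10, or 1.38-fold (adjusted p = 0.00541), and all 11 Stat3 probes passed, at 0.38 to 0.66. Of these probes 10 are annotated to 1 transcript and all were hybridised with the same samples, so they are not independent of each other. On the arrays matched in Eif2s3y Stat3 had 0.43 and did not pass (adjusted p = 0.091). The lowest, median and highest microglia values were 12.09, 12.58 and 12.81 with APP/PS1 and 12.33, 12.46 and 12.75 with WT, which overlapped (-0.01 ± 0.07, adjusted p = 0.971, 0 of 11 probes past the threshold). All 4 APP/PS1 astrocyte samples stood above the highest of 14 microglia samples, a comparison across slides.

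Among the suppressors, Socs3 moved in opposite directions in the 2 cell types. In astrocytes its values were 12.35, 10.42, 9.94 and 10.56 with APP/PS1 and 10.47, 9.13, 8.99 and 9.39 with WT. The groups overlapped because array 1 was high in both samples, yet the APP/PS1 sample was the higher one on each array, by 1.89, 1.29, 0.95 and 1.18. Socs3 rose by 1.33 ± 0.13, or 2.51-fold (adjusted p = 0.000184), and by 1.15 without replicate 1. Microglia values of Socs3 were 13.66, 14.22 and 14.60 at their lowest, median and highest with APP/PS1, and 14.43, 14.73 and 15.04 with WT. The groups overlapped only at their ends, the APP/PS1 sample was the lower one on 7 of 7 arrays, and Socs3 fell by 0.55 ± 0.10 on the log2 scale (adjusted p = 0.00434). The level in WT astrocytes was below that in WT microglia (difference -5.26 ± 0.30, adjusted p = 4.87e-12), and none of the 4 APP/PS1 astrocyte samples reached the lowest microglia sample.

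Socs2, which encodes a suppressor best known from growth hormone and STAT5 signalling, rose in both cell types. Its astrocyte values were 9.03, 8.80, 7.97 and 9.55 with APP/PS1 and 8.59, 7.64, 7.35 and 7.27 with WT. The groups overlapped, the APP/PS1 sample was the higher one on 4 of 4 arrays, and array 4 alone differed by 2.28. The rise was 1.12 ± 0.26 (adjusted p = 0.00745), 0.79 without replicate 4 and 1.72 on the arrays matched in Eif2s3y. In microglia the lowest, median and highest values were 7.61, 8.43 and 8.77 with APP/PS1 and 6.67, 7.82 and 8.34 with WT. These groups overlapped too, and the rise of 0.66 ± 0.19 on 7 of 7 arrays passed narrowly (adjusted p = 0.0396). It did not pass without replicate 1, 3, 4, 5, 6 or 7 (adjusted p = 0.0909, 0.0816, 0.0896, 0.0605, 0.123 and 0.0802) or without the dye term (0.0723). Of 12 Socs2 probes, all annotated to 1 transcript and hybridised with the same samples, 12 passed in astrocytes (0.96 to 1.15) and 10 in microglia (0.59 to 0.75).

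Socs1, whose product inhibits Janus kinases directly, did not pass in either cell type. Its values were 7.46, 7.21, 6.96 and 7.07 in APP/PS1 astrocytes, and 7.25, 7.24, 7.39 and 7.13 in WT astrocytes, and its microglia samples ran between 6.03 and 7.31 with APP/PS1 and between 6.35 and 7.10 with WT. The groups overlapped in both, with a difference of -0.08 ± 0.14 in astrocytes (adjusted p = 0.712) and -0.08 ± 0.11 in microglia (adjusted p = 0.67).

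**Figure D2:**
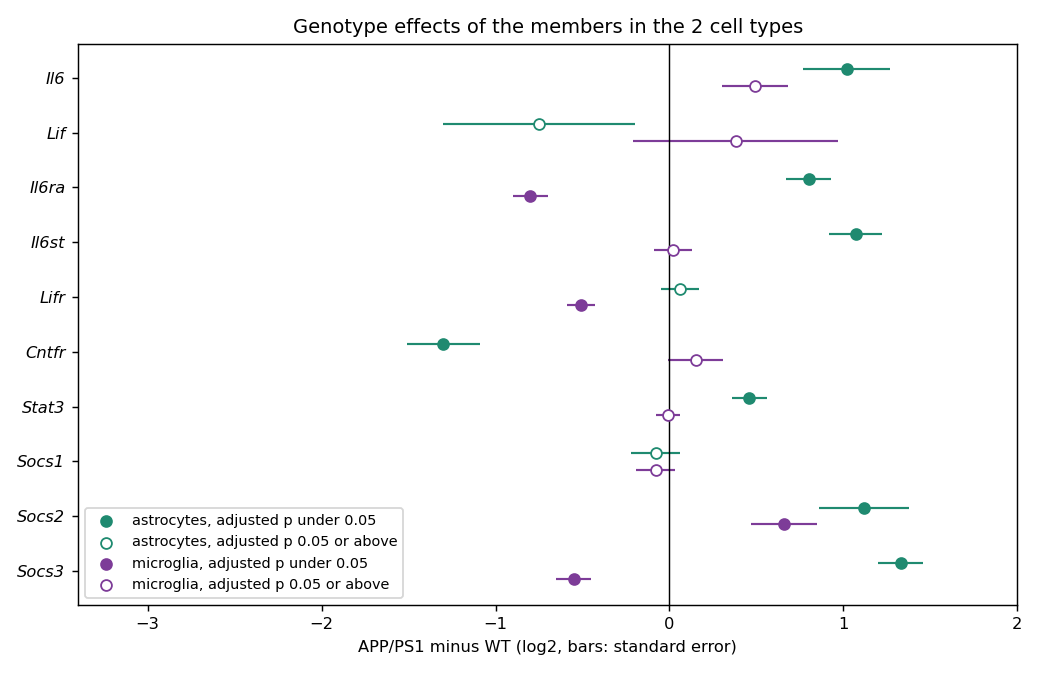
Genotype effect of each member (horizontal axis, APP/PS1 minus WT, log2) in astrocytes and microglia, with standard errors as bars; filled points passed an adjusted p of 0.05. Socs3 and Il6ra lie right of 0 in astrocytes and left of 0 in microglia, and Socs2 lies right of 0 in both.

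Counted together, 6 of 10 members rose and 1 fell in astrocytes, where 15.4% and 18.0% of 22474 genes did, and the median member difference was 0.63 against -0.07 over all genes. In microglia 1 member rose and 3 fell, where 8.26% and 11.3% of 22397 genes did, and the medians were 0.00 and -0.04. Without the array as a block, 4 members passed in astrocytes (Il6ra, Il6st, Cntfr and Socs3) and 1, Il6ra, in microglia. With astrocytes fitted alone, Il6st, Cntfr and Socs3 passed.

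The test of the difference itself, astrocyte effect minus microglia effect, passed upward for 5 members and downward for 1, against 13.4% and 13.2% of 22394 genes. The gap was 1.87 ± 0.17 for Socs3 (adjusted p = 9.34e-05), 1.60 ± 0.17 for Il6ra (adjusted p = 0.0002) and 1.05 ± 0.19 for Il6st (adjusted p = 0.00301). It was smaller for Lifr (0.56 ± 0.14, adjusted p = 0.0133) and Stat3 (0.47 ± 0.12, adjusted p = 0.02), and opposite for Cntfr (-1.45 ± 0.26, adjusted p = 0.00321). Socs2 rose in both cell types and its gap did not pass (0.46 ± 0.32, adjusted p = 0.334). The Stat3 gap was lost without astrocyte replicate 1 or 2 (adjusted p = 0.0579 and 0.0553) and on the arrays matched in Eif2s3y (0.111), the Lifr gap without astrocyte replicate 2 (0.0512), and the Cntfr gap with the probe chosen when blanks are skipped (-0.89, adjusted p = 0.0508). Without the array block the gaps of Socs3 and Il6ra passed and those of Il6st, Lifr, Stat3 and Cntfr did not.

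Markers of other cell types differed unevenly over the astrocyte arrays. The median differences of the microglia markers on arrays 1 to 4 were 3.42, 1.75, 1.92 and 0.60. Those of the endothelial markers were 0.29, 1.49, 0.84 and 1.71, and those of the mural markers 1.67, 2.83, 2.16 and 0.80. Socs3 differed most on array 1, where the microglia markers did too. It differed least on array 3 (0.95) and by 1.18 on array 4, where the microglia markers had 1.92 and 0.60. Stat3 differed most on array 1 and least on array 4, as those markers did. Il6ra, Il6st, Il6 and Socs2 differed most on array 4, where the microglia markers differed least and the endothelial markers most. The part of other cells in the rises of Socs3, Stat3, Il6ra, Il6, Il6st and Socs2 was not tested. APP/PS1 astrocytes exceeded all 14 microglia samples, across slides, in 4 of 4 cases for Stat3 and 3 of 4 for Socs2. They did so in 1 of 4 for Il6st and 0 of 4 for Il6, Il6ra and Socs3. In the microglia samples, 6 of 8 perivascular macrophage and monocyte markers fell (median -0.98, mean level 8.11 to 9.01 in APP/PS1 and 8.32 to 10.22 in WT microglia), as did 6 of 12 astrocyte markers (median -0.76, 1 rose) and 5 of 14 microglia markers (median -0.36, 2 rose). Of all genes, 11.3% fell and 8.26% rose in microglia. The part of these marker shifts in the falls of Il6ra, Lifr and Socs3 was not tested.

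**Figure D3:**
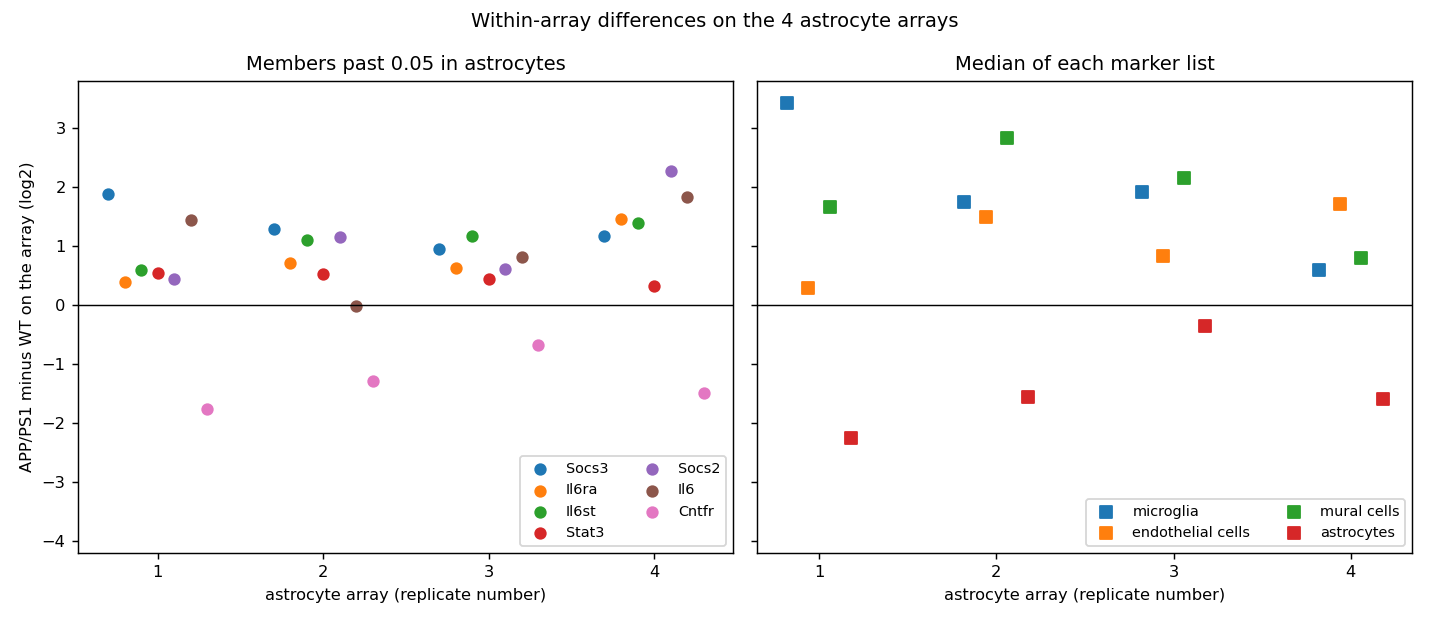
Difference between the APP/PS1 and the WT sample (vertical axis, log2) on each of the 4 astrocyte arrays (horizontal axis), for the 7 members past the threshold on the left and for the median of 4 marker lists on the right. Socs3 and the microglia markers are highest on array 1 (1.89 and 3.42), and Il6ra and the endothelial markers on array 4 (1.46 and 1.71). Socs3 is lowest on array 3 (0.95) and the microglia markers on array 4 (0.60).

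The other genes of the pathway, counted together with known STAT3 targets, rose in astrocytes more often than they fell. The 22 targets held 15 of the 25 rises and 0 of the falls, with a median of 1.00. The lists of other ligands, receptors, kinases with adaptors, and inhibitors had medians of -0.11, 0.12, 0.16 and 0.21. All lists were chosen with earlier results of these data known. Of 54 measured genes, 25 rose and 5 fell in astrocytes (median 0.44), where 15.4% and 18.0% of all genes did, and 12 rose and 9 fell in microglia (median -0.02), where 8.26% and 11.3% of all genes did. Of 9 other ligands, 1 rose and 2 fell in astrocytes (median -0.11), shares near those of all genes (15.4% and 18.0%). The cytokine subunit gene Ebi3 rose (1.22 ± 0.19, adjusted p = 0.00116), to 5.10 ± 0.78 in APP/PS1 astrocytes against 3.88 ± 0.75 in WT astrocytes (SD, n = 4 each), the WT mean lying below the lower quartile of the table. Ebi3 was higher in WT microglia (WT astrocytes minus WT microglia -8.40 ± 0.28), and its array differences of 1.89, 0.92, 1.65 and 0.42 were highest on array 1 and lowest on array 4, as those of the microglia markers were. Its partner gene Il27 (-0.31 ± 0.07, adjusted p = 0.00725) and the ciliary neurotrophic factor gene Cntf (-0.42 ± 0.14, adjusted p = 0.0452) fell. In microglia 2 of the 9 rose and 0 fell (median 0.17), Cntf by 0.99 ± 0.11 (adjusted p = 0.000198) and Clcf1, another ligand of the Cntfr complex, by 0.54 ± 0.10 (adjusted p = 0.00452). Cntf averaged 6.88 ± 0.68 in APP/PS1 and 5.92 ± 0.72 in WT microglia (SD, n = 7 each), and 6.99 ± 0.37 in APP/PS1 and 7.41 ± 0.25 in WT astrocytes (n = 4 each). Thus Cntf rose in microglia and fell in astrocytes, where the gene of its receptor subunit fell as well, and the gap between the cell types passed (-1.41 ± 0.18, adjusted p = 0.000498).

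Of 3 other receptor genes, Osmr, which encodes the gp130 partner for oncostatin M, rose in astrocytes by 1.37 ± 0.15 (adjusted p = 0.000228). It averaged 11.54 ± 0.08 in APP/PS1 and 10.17 ± 0.31 in WT astrocytes (SD, n = 4 each), groups that did not overlap. Its array differences were 0.98, 1.72, 1.54 and 1.26. They were lowest on array 1, where the endothelial markers differed least and the microglia markers most, and highest on arrays 2 and 3, as the mural markers were. The part of these cells in the rise of Osmr was not tested. In microglia Osmr was near the lower quartile of the table, with 4.35 ± 0.69 in APP/PS1 and 3.98 ± 0.56 in WT samples (n = 7 each), and it lay 6.19 ± 0.29 higher in WT astrocytes than in WT microglia (adjusted p = 3.05e-13). None of the 3 passed in microglia, where Osmr had 0.36 ± 0.11 (adjusted p = 0.0541).

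Of 10 kinases, adaptors and other STAT genes, 3 rose and 1 fell in astrocytes (median 0.16), where 15.4% and 18.0% of all genes did. In microglia 0 rose and 4 fell (median -0.15), where 8.26% and 11.3% of all genes did. In astrocytes Ptpn11, which encodes the phosphatase SHP2 that docks on gp130, rose by 1.05 ± 0.14 (adjusted p = 0.000539) and the adaptor gene Shc1 by 0.70 ± 0.12 (adjusted p = 0.00139). Stat5a fell in both cell types (-0.53 ± 0.08, adjusted p = 0.00109, in astrocytes and -0.40 ± 0.06, adjusted p = 0.00182, in microglia). The kinase gene Jak1 (-0.33 ± 0.06, adjusted p = 0.00604) and the docking protein gene Gab1 (-0.67 ± 0.14, adjusted p = 0.00734) fell in microglia. Of 10 other inhibitors, 5 rose and 2 fell in astrocytes (median 0.21), against the same 15.4% and 18.0% of all genes. In microglia 3 rose and 1 fell (median -0.03), against 8.26% and 11.3%. The phosphatase gene Ptpn6 rose in astrocytes by 2.12 ± 0.19 (adjusted p = 0.000124), to 6.62 ± 0.85 in APP/PS1 astrocytes against 4.49 ± 0.95 in WT astrocytes (SD, n = 4 each). The lowest WT sample, at 3.17, was below the lower quartile of the table, so the size of the rise and of the gap to WT microglia (-8.53 ± 0.31) rests on dim values. Its array differences of 2.64, 1.79, 2.63 and 1.43 were, like those of the microglia markers, highest on array 1 and lowest on array 4. The phosphatase genes Ptpn1 (0.53 ± 0.09, adjusted p = 0.00168) and Ptpn2 (-0.46 ± 0.08, adjusted p = 0.00186) moved apart in astrocytes. In microglia the STAT5-induced suppressor gene Cish rose by 1.51 ± 0.19 (adjusted p = 0.0005), Socs6 by 0.77 ± 0.10 (adjusted p = 0.000456) and Ptpn2 by 0.29 ± 0.06 (adjusted p = 0.00828).

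Known STAT3 targets were the pathway list with the highest median in astrocytes: 15 of 22 rose and 0 fell (median 1.00), where 15.4% and 18.0% of all genes did. In microglia 7 rose and 4 fell (median -0.01), where 8.26% and 11.3% of all genes did. Gfap, which encodes an intermediate filament that reactive astrocytes build up and which also stands among the astrocyte markers, rose by 1.90 ± 0.18 (adjusted p = 0.000144), to 9.51 ± 0.57 in APP/PS1 astrocytes against 7.61 ± 0.19 in WT astrocytes (SD, n = 4 each). The immediate early gene Fos rose by 2.21 ± 0.23 (adjusted p = 0.000184) and the cyclin gene Ccnd1 by 0.93 ± 0.10 (adjusted p = 0.000228). Of the 22 targets, 14 were higher in WT microglia than in WT astrocytes and 3 lower, against 18.0% and 35.2% of all genes. Of the 14, 11 rose in astrocytes, so the astrocyte rises and a larger share of microglial RNA touch the same genes. The part of that share was not tested. How many of all genes higher in WT microglia rose in astrocytes is not reported here. The 3 targets that were higher in WT astrocytes, Serpina3n, Vim and Gfap, all rose there too, with 1 rise among the 5 that did not pass between the cell types. On arrays 1 to 4 Vim differed by 1.91, 3.31, 2.40 and 1.16, in the order of the mural marker medians (1.67, 2.83, 2.16 and 0.80). Serpina3n and Gfap did not follow that order. The part of vascular cells in the rises of the targets was not tested. In microglia the hypoxia factor gene Hif1a rose by 1.85 ± 0.11 (adjusted p = 5.11e-06) and the kinase gene Pim3 by 0.93 ± 0.11 (adjusted p = 0.000287). Gfap rose there by 1.36 ± 0.13 (adjusted p = 0.000113), to 6.92 ± 0.40 in APP/PS1 microglia against 5.57 ± 0.35 in WT microglia (n = 7 each). It lay 2.05 ± 0.25 higher in WT astrocytes than in WT microglia. Of 12 astrocyte markers Gfap was the 1 that rose in microglia, and 6 fell (median -0.76). The part of astrocyte RNA in this rise was not tested.

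**Figure D4:**
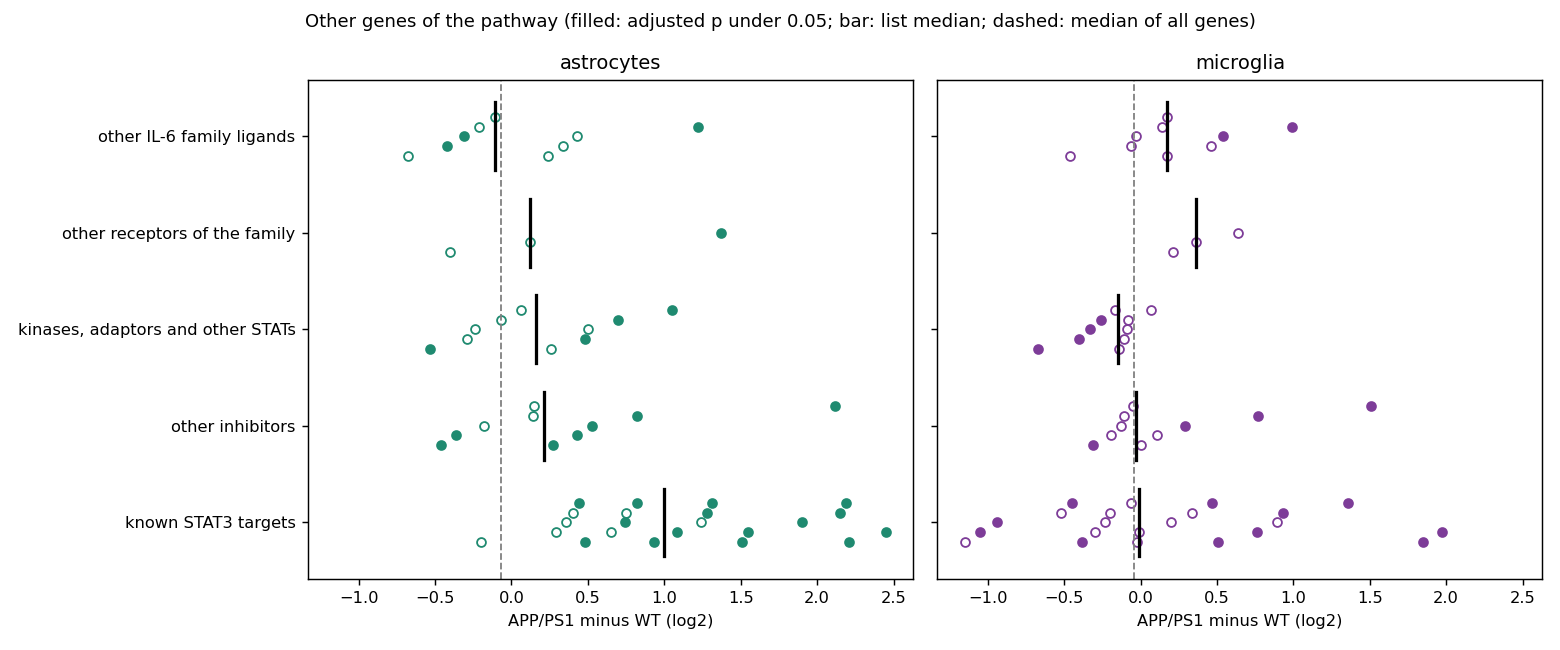
Genotype effect (horizontal axis, APP/PS1 minus WT, log2) of the other pathway genes by list, in astrocytes on the left and microglia on the right; filled points passed an adjusted p of 0.05, black bars are list medians and dashed lines the median of all genes. The STAT3 targets have a median of 1.00 in astrocytes and -0.01 in microglia.

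Across the 11 arrays, after each cell type's mean difference was subtracted, the genes whose array differences ran most like those of Socs3 were Atg4d and Nfkbid (Pearson r = 0.94 each), followed by Tent5c, F8a and Nab2 (0.91 each). These were the highest of 14369 genes ranked over 11 arrays and are given as a description. Among the members measured on all arrays the likeness to Socs3 was highest for Stat3 (0.56) and lowest for Cntfr (-0.43). Nampt and Gm6653 ran most like Il6ra (0.95 each), Tle1 (0.95) and Tmem151b (0.93) most like Cntfr, Arih2 (0.92) and Prkab2 (0.90) most like Stat3, and Strc and Fbln2 most like Socs2 (0.94 each). For the remaining members past the threshold the leading genes were Taf7 (0.94) and Gm9790 (0.93) for Il6, Olfr1126 (0.92) and Ntn5 (0.86) for Il6st, and Sbf2 (0.94) and Slc35a2 (0.92) for Lifr.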

How the data were processed

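Per the labels, RNA from sorted cells was amplified, labelled with Cy3 or Cy5 and hybridised to dual-colour Agilent arrays. The deposited table holds single-channel log2 values, 22 columns from 11 arrays on 3 slides. Per the submitters' processing notes limma was used. How background was corrected and arrays were normalized is not given in the sources used here. Column quantiles differed by at most 0.072, so the table would not show a change common to all genes. Of 43020 probes, the microglia arrays had 32045 to 40771 filled, and each astrocyte array between 42427 and 42869. No background flags were used, so signal at the dim end is uncertain.

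Of the probes, 33026 had 1 gene, 0 had several and 9994 were unnamed and not used. IDs of 32438 matched RefSeq, and 0 symbols changed. Of 22485 genes, 6138 had several probes. The main probe had the highest mean among probes with values in all samples, or with blanks skipped where there was none. This reading was chosen after the Cntfr values were seen, and skipping blanks throughout would change the probe of 213 genes, Cntfr the 1 member among them.

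Limma 3.58.1 (R 4.3.3, statmod 1.5.0) was fitted to the 22 samples together, with terms for array (fixed), dye and the genotype within each cell type, and with 1 common spread. WT levels were compared in a model of group means and dye in which array was random. Tests were two-sided, Benjamini-Hochberg adjusted over all genes. The fit was tested on simulated data. The array pairs the samples, per the labels: same-array samples, centred within groups, had a median correlation of 0.47 in microglia (range 0.36 to 0.62) and 0.22 in astrocytes (range -0.00 to 0.49), and other pairs one of -0.20 (range -0.51 to 0.50) and -0.11 (range -0.47 to 0.42). The number of arrays limits the precision. Tables and figures used Python 3.11.15, pandas 2.3.3, numpy 2.4.6 and matplotlib 3.10.9.

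Members, pathway lists and markers were chosen with earlier results of these data known. Named were all members and, per cell type and pathway list, up to 3 genes past 0.05 with the smallest adjusted p; genes like a member (5 for Socs3, 2 for others past 0.05) had the highest Pearson r of array differences, among genes measured on all arrays whose differences had an SD of at least 0.2. Alternatives were no array block, no dye term, quantile normalization, the mean of all probes, genes above the median gene, each cell type or slide alone, slide as a random block, and each replicate left out. Chosen after seeing the data were the probe picked with blanks skipped and only arrays whose samples differed by under 3 log2 units in Eif2s3y.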

Additional observations from a re-analysis of the deposited data

Results flagged for a closer look

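In astrocytes, 2 samples stood apart from the others of their group among 40 groups examined, where chance gives about 1 in 20. Lif in APP/PS1 replicate 2 was 2.06, with the nearest sample at 3.66, a gap of 0.944 of the group's range. Stat3 in APP/PS1 replicate 4 was 12.90, with the nearest sample at 13.25, a gap of 0.884 of the range.

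The genotype effect differed between the cell types by the interaction test for 6 members. The astrocyte effect minus the microglia effect was 1.87 for Socs3, 1.60 for Il6ra, 1.05 for Il6st, 0.56 for Lifr, 0.47 for Stat3 and -1.45 for Cntfr.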

How the results depend on the processing

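Of 515 recomputed member values, 449 kept their direction and their side of the threshold, 38 lost the call, 4 gained it and 24 changed sign; the 24 were of members that did not pass in the comparison concerned. Without the array block, which is the replicate block, 1179 genes passed in microglia, 2446 in astrocytes and 1491 for the gap between the cell types (4389, 7510 and 5952 with it), and 1, 4 and 2 members. Lost were Lifr (adjusted p = 0.352), Socs2 (0.281) and Socs3 (0.447) in microglia and Il6 (0.17), Stat3 (0.0906) and Socs2 (0.0671) in astrocytes. On slide 1 alone 950 genes and 1 member passed in microglia. On slide 2 alone limma called 0 genes and 0 members, with 4989 of 20751 genes and 5 members at an unadjusted p under 0.05; fewer samples enter both fits. Within slides 1 and 2 the values were -0.59 and -0.46 for Socs3, -0.80 and -0.83 for Il6ra, -0.53 and -0.45 for Lifr, and 0.47 and 0.98 for Socs2. With astrocytes alone 2748 genes and 3 members passed, Il6 (adjusted p = 0.118), Il6ra (0.0669), Stat3 (0.0672) and Socs2 (0.0997) being lost. On arrays matched in Eif2s3y 4468 genes passed in astrocytes and 3867 for the gap. Between the WT cell types 7265 genes passed when slide replaced array as random block, and 11927 with array. Leaving out 1 replicate gave 3 to 4 members in microglia, 6 to 7 in astrocytes and 5 to 7 for the gap.

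Sign changes in microglia were Stat3 at 0.00 (no dye term, or mean of all probes) and 0.13 (slide 2), Cntfr at -0.02 (mean of all probes) and -0.48 (blanks skipped), Lif at -0.12 (microglia alone) and -0.14 (slide 1), Il6st at -0.04 (matched arrays) and -0.22 (slide 2), and Socs1 at 0.14 (slide 2). The gap for Socs1 was -0.03 with no dye term. With 1 replicate left out, Il6st ran between -0.04 and 0.13, Stat3 between -0.04 and 0.05 and Socs1 between -0.18 and 0.02 in microglia, Lifr between -0.04 and 0.14 in astrocytes, and Socs1 between -0.10 and 0.10 for the gap. Gained calls beside those of Il6 in microglia were the gap of Il6 without astrocyte replicate 2 (0.88, adjusted p = 0.0423) and of Lif without microglia replicate 2 (-2.37, adjusted p = 0.0472). The cause of these shifts was not tested.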
